A study of Mus musculus with 58 samples.

Results

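The measurements below concern 10 lymphoid priming genes, Flt3, Il7r, Dntt, Rag1, Satb1, Ikzf1, Sox4, Blnk, Ebf1 and Notch1, chosen by symbol from the 55376 genes of the RNA-seq tables of a study of caloric restriction (CR) in mouse hematopoietic stem cells (HSCs). All 10 symbols were found once in each of the 34 RNA-seq libraries. HSCs were sorted from bone marrow of wild-type male C57BL/6 mice. Old mice of 24 to 26 months were fed ad libitum for life (OAL, 4 libraries), kept on lifelong 40% CR (OCR, 4 libraries), or returned to free feeding for 4 weeks after lifelong CR (OCRRF, 2 libraries). Young mice of 3 to 4 months were fed ad libitum (YAL), placed on short-term CR of 20% in the opening week and 40% after it (YCR), or refed for 4 weeks after that (YCRRF), with 4 libraries each. In a further experiment, HSCs of old mice were transduced with lentiviral shRNA and transplanted with myeloid progenitors into lethally irradiated young female recipients, from which donor HSCs were sorted. Its groups were a Kdr shRNA with GFP (4 libraries) against a GFP scramble (2 libraries), and the Kdr shRNA joined with either of a pair of Bmpr1a shRNAs marked by mCherry (2 libraries each, taken as 1 arm of 4) against a GFP and mCherry double scramble (2 libraries). Each transplant library thus holds old donor cells from a young irradiated host, and its own scramble is its control.

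Lymphoid priming is the low-level transcription of lymphocyte genes in stem and multipotent progenitor cells that have not yet left the other lineages. Receptors act early in it: Flt3 and the interleukin 7 receptor chain encoded by Il7r carry growth and survival signals to progenitors, and Notch1 directs cells to the T lineage. Ikzf1, Satb1, Sox4 and Ebf1 encode nuclear factors that open lymphoid genes or, for Ebf1, specify B cells. Rag1 and Dntt encode enzymes that cut and edit antigen receptor genes, and Blnk encodes an adaptor of the pre-B cell receptor. The gate used for the diet groups removed cells with Flk2 (the protein of Flt3) or IL-7Rα (the protein of Il7r) on the surface, and kept CD34- CD150+ cells of the Lin- Sca-1+ c-Kit+ fraction. Transplanted HSCs were gated as CD48- CD150+ donor cells of the Lin- Sca-1+ c-Kit+ fraction, and Flk2, CD34 and IL-7Rα were not stained. Levels of Flt3 and Il7r in the diet and transplant libraries thus come from differently selected cells.

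Libraries held 11102898 to 36579392 counts in the diet groups and 35657999 to 44780217 in the transplant groups. All 14 HSC markers examined, among them Slamf1, Procr, Hlf and Mecom, were detected in every group, and their summed level was 5017 to 6910 CPM (read counts scaled to a common library size with TMM factors) in the diet libraries and 3974 to 5036 CPM in the transplanted ones. Old diet libraries stood apart from the others in a way that touches the low genes of the set. Olfactory and vomeronasal receptor genes, which HSCs are not known to use, summed to 530 to 1486 CPM in the 10 old libraries, to 66.5 to 474 CPM in the 12 young ones, and to 21.5 to 42.1 CPM in the 12 transplanted ones. Among old libraries the range was 530 to 752 CPM in OAL, 561 to 1257 CPM in OCR and 1161 to 1486 CPM in OCRRF. This receptor sum was taken as a measure of background.

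The 10 genes differed widely in level. Per kilobase of annotated exon, the order in OAL was Sox4 (34.2 ± 1.53 CPM per kb, SD, n = 4), Ikzf1 (23.8 ± 0.887), Notch1 (4.89 ± 0.326), Flt3 (2.23 ± 0.388), Blnk (0.406 ± 0.0340), Satb1 (0.313 ± 0.0843), Dntt (0.204 ± 0.0320), Ebf1 (0.188 ± 0.0480), Rag1 (0.183 ± 0.0671) and Il7r (0.138 ± 0.00555). Each of the highest 4 lay clear of its neighbours by more than their SDs, whereas Dntt, Ebf1 and Rag1 did not differ beyond their spread. The same order was found in YAL, where Notch1 (4.93 ± 0.832 CPM per kb) and Flt3 (4.24 ± 1.16) overlapped. In the double scramble of the transplants Flt3 (7.80 ± 1.01 CPM per kb, n = 2) ranked above Notch1 (1.31 ± 0.000469), and Rag1 had 0 counts in both libraries.

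Il7r, Rag1, Ebf1 and Dntt were hardly distinguishable from background in the old diet libraries. In old HSCs the level of Il7r per kilobase was 1.08 to 1.61 times that of the receptor genes, that of Rag1 0.806 to 2.60 times, that of Ebf1 1.02 to 2.03 times and that of Dntt 1.39 to 3.09 times. Il7r, Rag1 and Ebf1 were under the 95th percentile of single receptor genes in each of the 10 old libraries, and Dntt was above it in 3 of them. Ratios in young libraries were more scattered, up to 7.62 times for Ebf1 in YCR and 12.6 times for Dntt in YCRRF, each above that percentile in 1 of 4 libraries. By the same measure Satb1 was 1.67 to 3.25 times and Blnk 2.23 to 4.14 times background in old HSCs. Satb1 was above that percentile in 3 of 4 OAL, 1 of 4 OCR and 0 of 2 OCRRF libraries, and Blnk in 4, 3 and 2. Both stood further above background in YAL, with medians of 17.3 times for Satb1 and 33.6 times for Blnk. Flt3, Notch1, Ikzf1 and Sox4 stood at least 9.00 times above background in every library.

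**Figure D1:**
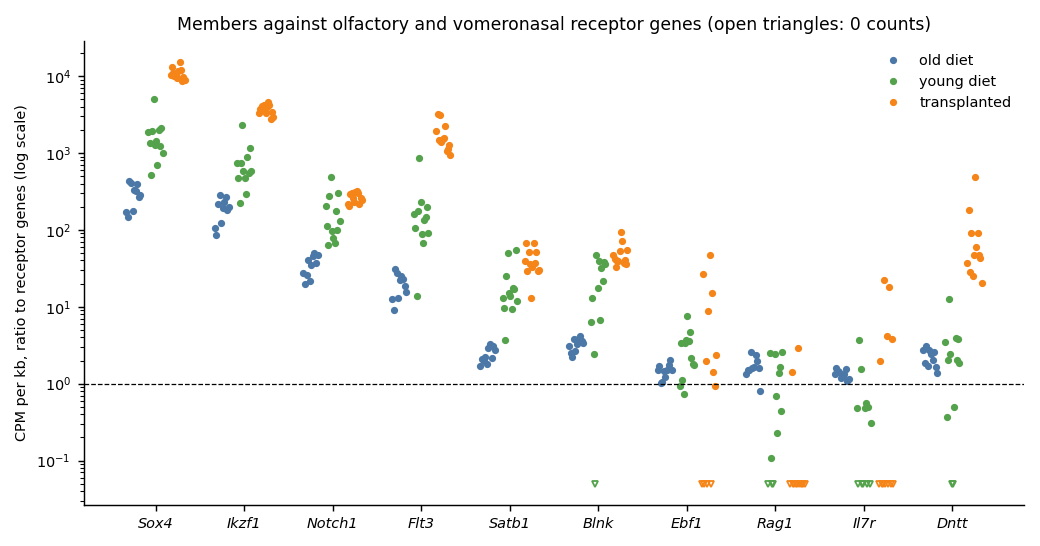
Level of each gene per kilobase divided by that of the olfactory and vomeronasal receptor genes in the same library (log axis, 1 point a library, open triangles for 0 counts, dashed line at a ratio of 1). Il7r, Rag1, Ebf1 and Dntt lie near the line in old diet libraries, whereas Sox4, Ikzf1, Notch1 and Flt3 stand at least 9.00 times above it in every library.

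The comparison of OAL with YAL sets old against young HSCs under free feeding. Old mice came from the NIA Aged Rodent Colony and young mice from The Jackson Laboratory, and OAL libraries held 42071 to 43972 detected genes against 25936 to 28713 in YAL, so age, source and library background cannot be told apart. Flt3, Sox4, Satb1 and Blnk were lower in old HSCs, and Il7r was called higher from counts at background. The 5 called genes of 10, 4 lower and 1 higher, stand beside 14.8% of the 23525 genes tested that were called in either direction. Of all genes tested, 6.89% were called higher and 7.93% lower (edgeR quasi-likelihood test, Benjamini-Hochberg adjusted p under 0.05 and a fold change above 1.2). Il7r passed the filter on low counts only through OAL, where it was high, so its call adds no support. DESeq2 called 6 of the 10, against 20.2% of all genes. The median log2 fold change was 0.04 over the 10 genes and 0.05 over all genes tested.

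Flt3 was 16.3, 13.0, 14.9 and 10.8 CPM in OAL and 21.6, 36.7, 24.7 and 21.7 CPM in YAL. All old libraries lay under all young ones, and Flt3 fell by 0.91 on the log2 scale (SE 0.20, edgeR adjusted p = 0.0145). Sox4, a SOX family factor required early in B cell development, was 163, 173, 164 and 155 CPM in OAL against 247, 241, 207 and 186 CPM in YAL. Its groups did not overlap either, and its level fell by 0.41 on the log2 scale (SE 0.09, adjusted p = 0.0135). Satb1, a chromatin organizer of T cell precursors, was 6.58, 3.74, 7.51 and 5.99 CPM in OAL and 8.57, 13.3, 21.4 and 8.78 CPM in YAL (log2 fold change -1.11, SE 0.33, adjusted p = 0.0431). The young libraries were spread, with 1 at 21.4 CPM. Cd34 and Cd48, markers of multipotent progenitors, fell as well, Cd34 from 150 to 197 CPM in YAL to 113 to 144 CPM in OAL and Cd48 from 1.21 to 3.78 CPM to 0.201 to 0.802 CPM. Their part in the levels of Flt3, Sox4 and Satb1 was not tested.

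Blnk was 2.41, 2.28, 2.73 and 2.31 CPM in OAL and 4.90, 5.29, 4.63 and 8.28 CPM in YAL, a log2 fold change of -1.23 (SE 0.29, adjusted p = 0.0182). Other B lineage transcripts moved with it: the summed level of 7 B cell markers, Blnk not among them, was 37.5 to 42.8 CPM in OAL and 62.7 to 121 CPM in YAL, and 4 of the 7 fell. The part of these markers in the level of Blnk was not tested. In bulk libraries of this kind, fewer cells with a transcript and less transcript per cell cannot be told apart.

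Il7r had 20 to 23 counts in each OAL library and 0 to 3 in each YAL library, which gave a log2 fold change of 3.92 (SE 0.96, adjusted p = 0.0215). Beside it, the receptor genes were at 0.0919 to 0.128 CPM per kb in OAL and 0.0202 to 0.0404 CPM per kb in YAL. Ebf1 (log2 fold change 1.29, adjusted p = 0.102), Rag1 (1.81, adjusted p = 0.115) and Dntt (1.29, adjusted p = 0.204) had the same sign and were not called. Il7r, Rag1 and Dntt did not pass the filter on low counts in the comparisons among young groups. Notch1 (0.00, SE 0.12) and Ikzf1 (0.07, SE 0.06) had levels within their spread. Groups did not overlap for 7 of the 10 genes, against 27.5% of all genes tested. Il7r, Dntt and Ebf1, near background in old libraries, were among the 7.

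The neighbouring lists also differed between OAL and YAL. Of 115 other genes in lists of early lymphoid, B cell, T cell, Notch, cytokine, paralog and E or Id protein genes, 110 were tested, 10 rose and 21 fell. Among 15 early lymphoid genes 3 rose and 6 fell, and among 20 B cell genes 0 rose and 8 fell. The most changed were Ly6d, Ighm and Cd79a, all lower in OAL than in YAL. Ly6d, a surface marker of B-primed lymphoid progenitors, was 0.109 ± 0.128 CPM in OAL and 5.37 ± 2.47 CPM in YAL. Ly6d passed the filter on low counts only through YAL, where it was high, so its call adds no support. Ighm, the immunoglobulin heavy chain, was 1.16 ± 0.131 and 33.7 ± 16.2 CPM. Cd79a, its signalling partner, was 0.660 ± 0.202 and 12.7 ± 8.61 CPM. On the higher side were Ccr9, a homing receptor (2.58 ± 0.274 against 0.563 ± 0.489 CPM), Socs3, a cytokine signalling inhibitor (log2 fold change 1.87), and Ets1 (0.86). The called genes kept their sign in all 8 fits that left out 1 library, but each lost its call in some. Flt3 lost its call without OAL replicate 2 or 4, Sox4 without 1 or 4, and Blnk without 1, 2 or 4. Il7r lost it without any one of the 4 OAL libraries. Satb1 lost it without any one of those 4 or without YAL replicate 3 (log2 fold change -0.78). The log2 fold changes smallest in size were -0.72 for Flt3, -0.36 for Sox4, -1.02 for Blnk and 3.43 for Il7r. The highest edgeR adjusted p was 0.0544 for Flt3, 0.0532 for Sox4, 0.0649 for Blnk, 0.0753 for Il7r and 0.116 for Satb1. These fits cannot tell a call carried by 1 library from a call lost with fewer libraries. A scaling drawn from genes of at least 5 CPM left Flt3, Blnk and Il7r called and ended the calls of Sox4 (-0.30, adjusted p = 0.0516) and Satb1 (-0.998, adjusted p = 0.0719), and it changed the split over all genes from 1620 higher and 1866 lower to 1872 and 784.

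**Figure D2:**
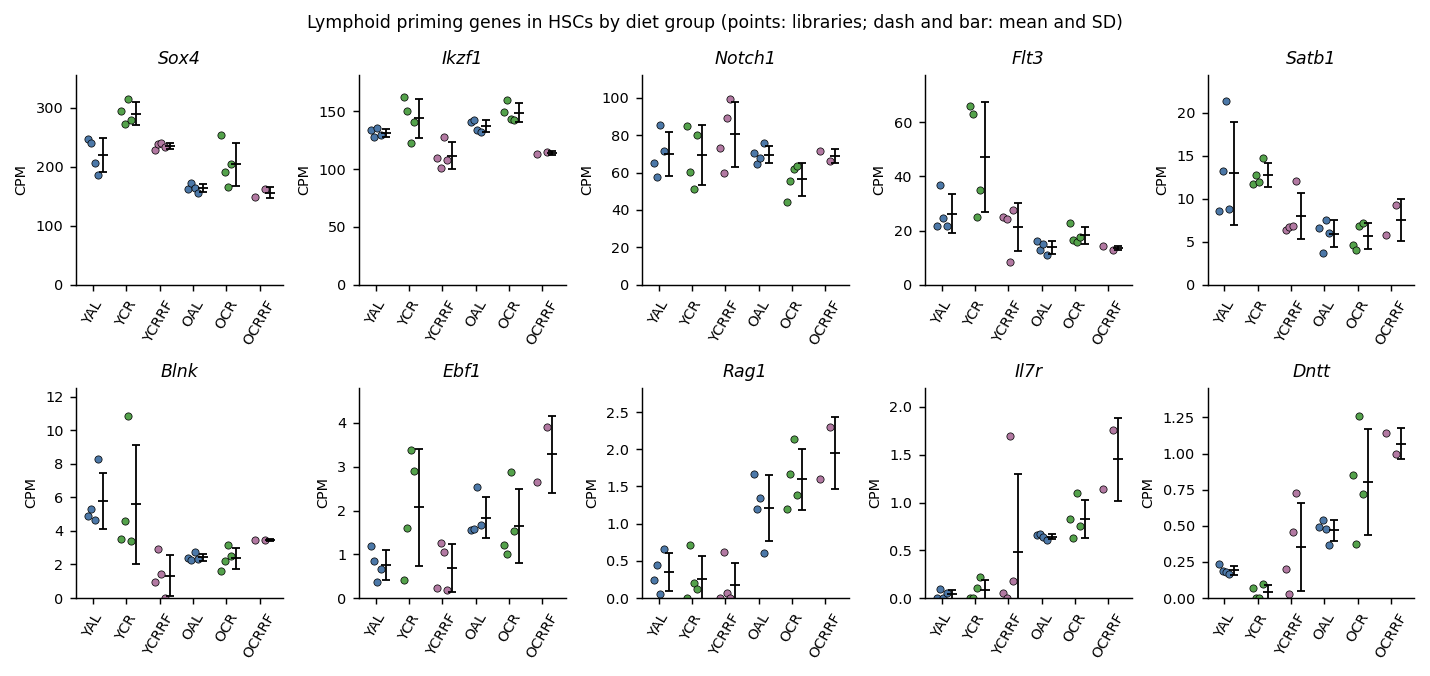
CPM of the 10 genes in the 6 diet groups, on linear axes from 0 (points: libraries, dash and bar: mean and SD, 4 libraries a group and 2 in OCRRF). Blnk is lower in every old library than in YAL. Means of Flt3 and Satb1 are lower in the 3 old groups than in YAL, with overlap at OCR for Flt3 and at OCRRF for Satb1. Sox4 is highest in YCR at 272 to 316 CPM, and Ikzf1 is lower in OCRRF than in OCR and OAL.

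Lifelong CR raised 1 of the 10 genes. Sox4 was 254, 192, 166 and 205 CPM in OCR and 163, 173, 164 and 155 CPM in OAL, a 1.26-fold higher level (log2 fold change 0.33, SE 0.10, adjusted p = 0.0390). Of the 4 OCR libraries, 3 lay above every OAL library, and replicate 3 lay among them. The background in this comparison was 5.57% of 27150 genes called, 2.54% higher and 3.03% lower. Cell type markers moved too: 4 of 8 erythroid markers fell (summed level 36.6 to 69.9 CPM in OCR and 37.5 to 236 CPM in OAL), and of 14 HSC markers 4 fell and 1 rose. Their part in the level of Sox4 was not tested.

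Flt3 was 22.9, 16.6, 15.8 and 17.7 CPM in OCR and 16.3, 13.0, 14.9 and 10.8 CPM in OAL, with a log2 fold change of 0.42 (SE 0.14, adjusted p = 0.0817). The groups touched at 1 OAL library, and DESeq2 called the difference (adjusted p = 0.0360, with 7.1% of all genes called). Notch1 went the other way, at 44.5, 55.7, 62.0 and 63.7 CPM in OCR against 70.3, 64.7, 67.6 and 75.6 CPM in OAL. Every OCR library was under every OAL library, yet the difference was not called (log2 fold change -0.28, SE 0.10, adjusted p = 0.0995). Ikzf1, which encodes the zinc finger factor Ikaros, was 143 to 160 CPM in OCR and 132 to 142 CPM in OAL (log2 fold change 0.13, SE 0.08). Those 2 groups were the other pair without overlap, so 2 of the 10 genes were free of overlap, against 11.4% of all genes tested.

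Satb1 (log2 fold change -0.06, SE 0.21) and Blnk (-0.03, SE 0.24) gave no call in this comparison. Il7r (0.37), Rag1 (0.41), Dntt (0.78) and Ebf1 (-0.14) had adjusted p-values of 0.415 to 0.895, with counts of 13 to 89 a library in OCR. Dntt was highest in OCR replicate 3 (1.26 CPM), the OCR library with the highest receptor sum. Of the 115 other list genes 111 were tested, 3 rose and 14 fell. Thy1, a surface glycoprotein of T cells and some HSCs (3.35 ± 0.772 against 1.36 ± 0.367 CPM), Syk, a kinase of the pre-B cell receptor pathway (101 ± 12.9 against 72.5 ± 5.45 CPM), and Lsp1 (120 ± 17.2 against 87.1 ± 8.00 CPM) rose. Id2, an inhibitor of E proteins, fell from 55.9 ± 5.11 to 26.8 ± 4.96 CPM, and Cish, a target and inhibitor of STAT5 signalling, and Gfi1, a repressor of lymphoid and myeloid choice, fell by 0.97 and 0.90 on the log2 scale. The median log2 fold change was 0.23 over the 10 genes and 0.02 over all genes tested. Sox4 lost its call in 6 of 8 fits that left out 1 library (without OCR replicate 1, 2 or 4, or OAL replicate 1, 3 or 4), and without OCR replicate 1 its log2 fold change was 0.21. Its call was also lost in 1 fit of all groups (adjusted p = 0.468).

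Short-term CR in young mice called 0 of the 10 genes with edgeR, against 0.364% of 18680 genes tested (0.091% higher), while 2 had an unadjusted p under 0.05 and DESeq2 called 1, against 2.43% of all genes. That gene was again Sox4, at 294, 272, 316 and 279.5 CPM in YCR and 247, 241, 207 and 186 CPM in YAL. Every YCR library was above every YAL library, as for 6.32% of all genes tested (log2 fold change 0.41, SE 0.10, edgeR adjusted p = 0.148, DESeq2 adjusted p = 0.00484). Flt3 was 66.05, 63.0, 25.1 and 35.0 CPM in YCR and 21.6, 36.7, 24.7 and 21.7 CPM in YAL. A pair of YCR libraries was high and the other pair lay among the controls, which gave a log2 fold change of 0.86 with a wide error (SE 0.30, edgeR adjusted p = 0.374).

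Il7r, Dntt and Rag1 did not pass the filter on low counts in this comparison, with at most 14 counts in any library of the 2 groups, so 7 of the 10 genes were tested. Satb1, Notch1 and Blnk had log2 fold changes of -0.01, 0.00 and -0.04. Of the other list genes 102 were tested, 0 rose and 2 fell: Cish, from 130 ± 21.0 to 58.0 ± 8.08 CPM, and Pik3cd, the lymphoid and myeloid PI3 kinase subunit, from 296 ± 62.5 to 145 ± 19.6 CPM.

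Whether CR acted differently at the 2 ages was tested on the 4 groups together, as the response in old minus the response in young. The count called was 0 of 10 with edgeR, against 0.0318% of 28328 genes tested (0.0106% higher and 0.0212% lower), with 1 at an unadjusted p under 0.05 and 0 with DESeq2 (0.731% of all genes). The difference was -0.08 (SE 0.16) for Sox4 and -0.01 (SE 0.12) for Ikzf1 on the log2 scale. It was less sharply bounded for Flt3 (-0.44, SE 0.36), Notch1 (-0.28, SE 0.22) and Satb1 (-0.05, SE 0.41). Dntt had the lowest p of the set (difference 2.71, SE 1.119, adjusted p = 0.497), from 0 to 3 counts a library in YCR, and in old mice its level ran near background.

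Refeeding after lifelong CR gave 1 called gene, against 3.41% of 32577 genes tested, 2.71% lower. Ikzf1 was 113 and 115 CPM in OCRRF and 150, 160, 143 and 143 CPM in OCR (log2 fold change -0.45, SE 0.12, adjusted p = 0.0255). Both refed libraries were under all CR libraries. They were also under all 4 OAL libraries (141, 142, 134 and 132 CPM), and in that comparison Ikzf1 fell by 0.28 on the log2 scale (SE 0.07, adjusted p = 0.0380), the 1 gene of the set called, against 4.14% of 31816 genes (1.66% higher and 2.48% lower). Ikzf1 after refeeding was thus below both the CR and the ad libitum level. The 2 comparisons share the OCRRF libraries.

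Sox4 was 149 and 163 CPM in OCRRF, under all OCR libraries (log2 fold change -0.45, SE 0.14, adjusted p = 0.0564) with 1 library under the OAL range of 155 to 173 CPM and 1 in it (log2 fold change over OAL -0.08, SE 0.07). DESeq2 called the difference from OCR (adjusted p = 0.0149, with 7.22% of all genes called). Flt3 was 14.2 and 13.0 CPM, again under all OCR libraries (-0.48, SE 0.17, adjusted p = 0.129) and between the OAL values (-0.03, SE 0.16). DESeq2 called Flt3 against OCR as well (adjusted p = 0.0298), as did edgeR with a replicate block (adjusted p = 0.0165). Notch1 was 71.8 and 66.4 CPM, above all OCR libraries (0.24, SE 0.13, adjusted p = 0.363) and level with OAL (-0.02, SE 0.08). None of these 3 genes was called against OCR with the settings used throughout, while edgeR called Sox4 with DESeq2 size factors (adjusted p = 0.0288) and without the filter on low counts (adjusted p = 0.0149). Without OCR replicate 3, Sox4 (adjusted p = 0.00745), Flt3 (adjusted p = 0.0487) and Ebf1 (adjusted p = 0.0135) were called. The comparisons with OCR and with OAL share the refed libraries.

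Ebf1, Blnk, Il7r, Dntt, Rag1 and Satb1 had higher mean values in OCRRF than in both other old groups, without a call with all libraries. Dntt averaged 1.07 CPM in OCRRF, 0.802 CPM in OCR and 0.468 CPM in OAL (log2 fold change over OAL 1.17, edgeR adjusted p = 0.111). In the same order, means were 1.95, 1.60 and 1.21 CPM for Rag1 and 7.53, 5.65 and 5.95 CPM for Satb1. Ebf1 was 2.66 and 3.91 CPM in OCRRF, 1.01 to 2.87 CPM in OCR and 1.55 to 2.53 CPM in OAL (log2 fold change over OCR 0.93, SE 0.35, adjusted p = 0.156). Blnk was 3.43 and 3.48 CPM, above both other old groups (0.49 against each, adjusted p = 0.415 and 0.194), and Il7r was 1.14 and 1.76 CPM against 0.608 to 0.665 CPM in OAL (1.15, SE 0.39, adjusted p = 0.0823). Receptor sums were 1161 and 1486 CPM in OCRRF, 561 to 1257 CPM in OCR and 530 to 752 CPM in OAL. The 7 B cell markers summed to 45.7 and 47.2 CPM in OCRRF, 36.6 to 43.6 CPM in OCR and 37.5 to 42.8 CPM in OAL, with 2 of 7 called higher in each comparison, and 3 of 8 erythroid markers rose over OCR. The part of these markers in Ebf1 and Blnk was not tested. Groups did not overlap for 6 of the 10 genes between OCRRF and OCR and for 5 between OCRRF and OAL, against 28.3% and 38.6% of all genes tested, with only 2 refed libraries. With the receptor sum as a covariate, 0 of the 10 genes were called in either comparison. Ikzf1 was then at -0.32 against OCR (adjusted p = 0.439) and -0.13 against OAL (adjusted p = 0.957). Ebf1 against OAL turned from 0.82 to -0.57. Both refed receptor sums lay above every OAL sum and met the OCR sums only at OCR replicate 3 (1257 CPM). These fits therefore cannot tell refeeding and background apart.

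Among the other list genes 9 rose and 5 fell between OCRRF and OCR, with Pax5, the B lineage commitment factor, among the highest (3.08 ± 0.731 against 1.22 ± 0.455 CPM). Gfi1 rose from 12.8 ± 6.49 to 36.9 ± 18.2 CPM. Syk, the Sox4 relative Sox12 and the adaptor gene Grb2 fell by 0.68, 0.64 and 0.56 on the log2 scale. Against OAL, 4 rose and 6 fell. Ms4a1, Pax5 and Pik3cd led the higher side. Jag2, a Notch ligand (18.2 ± 0.101 against 28.7 ± 0.899 CPM), Id2 and Kit led the lower side. Receptor sums were 1161 to 1486 CPM in OCRRF, 561 to 1257 CPM in OCR and 530 to 752 CPM in OAL. The part of this background in the levels of Pax5 and Ms4a1 was not tested. The Ikzf1 call against OCR was lost without OCRRF replicate 1 or 2 or OCR replicate 2, and that against OAL without any one of the 6 libraries, and the latter also when scaling used genes of at least 5 CPM (-0.14, adjusted p = 0.235). That scaling changed the split over all genes from 226 higher and 884 lower to 341 and 573 against OCR, and from 528 and 788 to 754 and 54 against OAL.

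In young mice refeeding called 0 of the 10 genes against YCR, beside 0.0102% of 19535 genes tested, with 4 at an unadjusted p under 0.05 and 0 by DESeq2 (1.43% of all genes). Those 4 were all lower after refeeding. Flt3 was 25.0, 24.2, 8.44 and 27.7 CPM in YCRRF (log2 fold change -1.16, SE 0.40), Ikzf1 110, 101, 128 and 108 CPM (-0.38, SE 0.13) and Sox4 229, 239, 241 and 234 CPM (-0.32, SE 0.10). Sox4 was under every YCR library, as was Blnk (5.52% of all genes tested had no overlap), while Flt3 and Ikzf1 each overlapped YCR. Blnk was 0.977, 2.93, 1.41 and 0 CPM in YCRRF, under all YCR and all YAL libraries (-2.06 and -2.09, SE 0.92 and 0.87). The lowest adjusted p of the set was 0.446. Neutrophil markers summed to 259 to 1320 CPM in YCRRF, 2.25 to 274 CPM in YCR and 4.98 to 666 CPM in YAL, and B cell markers to 44.2 to 63.2 CPM in YCRRF and 51.0 to 122 CPM in YCR. Their part in these differences was not tested. Against YAL, edgeR called 0 of the 10 genes and 0% of 19334 genes tested, with 1 (Blnk, also the 1 gene without overlap, against 3.22%) at an unadjusted p under 0.05 and 0 by DESeq2 (0.0776% of all genes).

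**Figure D3:**
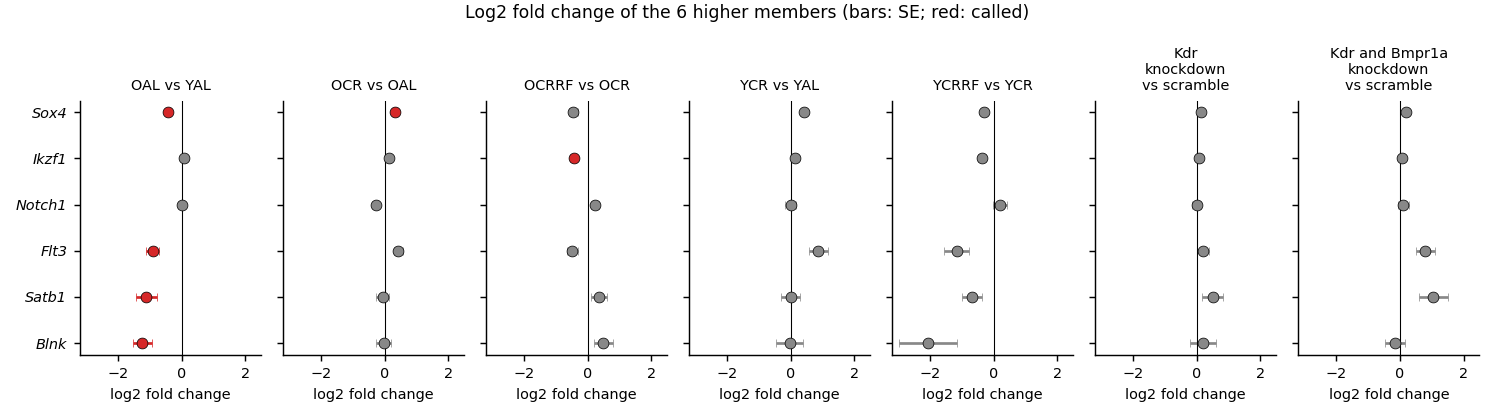
Log2 fold changes (points) with SE (bars) of the 6 genes with the highest levels in 7 comparisons, with called genes in red. The signs for Sox4 and Flt3 are negative in OAL against YAL, positive with CR at both ages and negative after refeeding at both ages. These comparisons share the OAL, OCR, YAL and YCR libraries. The knockdown panels hold no called gene.

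In the transplant experiment the targeted genes were read first. Kdr, the VEGF receptor 2 gene, was 1.93, 2.21, 3.28 and 2.03 CPM with the Kdr shRNA and 6.04 and 6.07 CPM with its scramble (log2 fold change -1.35, SE 0.25, adjusted p = 0.247). With the double knockdown it was 1.24, 0.555, 1.60 and 1.35 CPM against 3.97 and 4.62 CPM (-1.86, SE 0.37, adjusted p = 0.272). Each knockdown library was under each scramble library, though neither fold change passed the adjusted threshold. Bmpr1a, a BMP receptor, was 4.44 and 0.656 CPM with the shRNA1, 2.22 and 0.595 CPM with the shRNA2, and 5.21 and 4.43 CPM in the double scramble, so 1 double knockdown library lay between its controls.

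The Kdr knockdown called 0 of the 10 genes, against 0.0149% of 20098 genes tested, with 0 at an unadjusted p under 0.05 and 0 by DESeq2 (1.51% of all genes). Flt3 was 51.0, 52.4, 33.4 and 50.9 CPM against 45.7 and 36.3 CPM (log2 fold change 0.19, SE 0.19). Sox4 was 282 to 304 CPM against 272 and 267 CPM, the 1 gene of the set without overlap (21.9% of all genes tested had none), with a log2 fold change of 0.11 (SE 0.06). Ikzf1, Notch1 and Blnk had log2 fold changes of 0.07, -0.01 and 0.19. Dntt and Ebf1 were set by 1 library: Kdr knockdown replicate 1 had 235 counts of Dntt and 95 of Ebf1, against 22 to 47 and 0 to 34 in the other knockdown libraries and 12 to 22 and 2 to 6 in the scrambles. The fold changes, 2.26 for Dntt (SE 1.04) and 3.00 for Ebf1 (SE 1.70), had adjusted p-values of 0.571 and 0.636.

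The double knockdown also called 0 of the 10 genes, against 0.00498% of 20072 genes tested, with 2 at an unadjusted p under 0.05 and 0 by DESeq2 (1.65% of all genes). Flt3 was 70.8 and 108 CPM with shRNA1 and 48.7 and 108 CPM with shRNA2, against 43.7 and 52.6 CPM in the double scramble (log2 fold change 0.80, SE 0.31, adjusted p = 0.461). The shRNA2 library at 48.7 CPM lay between the controls. Satb1 was 4.41, 6.99, 2.92 and 5.49 CPM against 3.42 and 1.38 CPM, overlapping at 1 library (1.05, SE 0.45, adjusted p = 0.507). Cd34, another gene of multipotent progenitors, which this gate did not use, was 539 to 807 CPM with the double knockdown and 437 to 488 CPM with its scramble. Its relation to the level of Flt3 was not tested.

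Taken per shRNA, the log2 fold change of Flt3 was 0.90 with shRNA1 and 0.70 with shRNA2. Sox4 was the 1 gene without overlap, at 268 to 342 CPM against 261 and 258 CPM (0.19, SE 0.10), beside 21.3% of all genes tested. Ikzf1 (0.05, SE 0.07), Notch1 (0.11, SE 0.18) and Blnk (-0.16, SE 0.32) gave no call. Il7r and Rag1 did not pass the filter on low counts in either knockdown comparison, with at most 20 counts of Il7r and 4 of Rag1 in any transplanted library. The difference between the double and the single knockdown was called for 0 of the 10 genes, with 0 at an unadjusted p under 0.05 and 0 by DESeq2 (0.0141% of all genes), and was 0.60 (SE 0.39) for Flt3. None of the 21250 genes tested there was called (0%). Of the other list genes, 93 were tested in the single and 91 in the double knockdown and 0 were called in either direction in both.

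**Figure D4:**
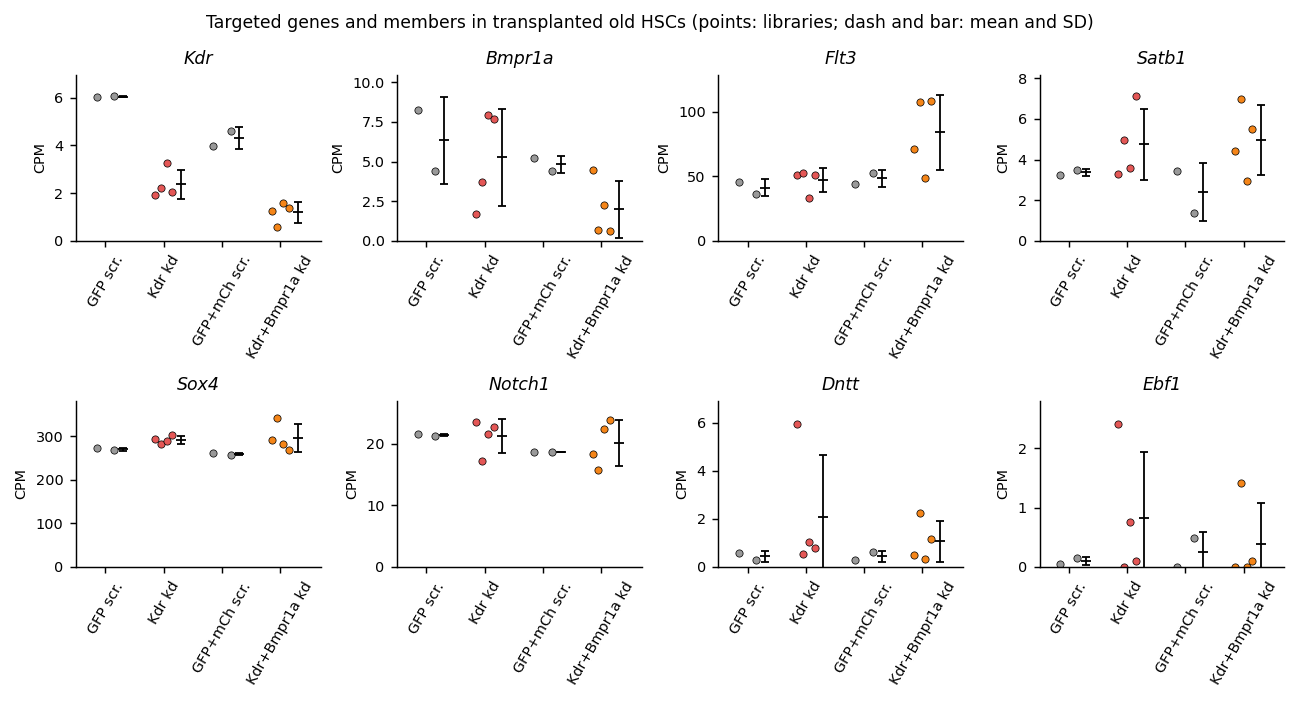
CPM of the targeted genes Kdr and Bmpr1a and of 6 members in transplanted old HSCs, on linear axes from 0 (points: libraries, dash and bar: mean and SD, with bars ending at the axis where they would pass 0, 2 libraries in each scramble and 4 in each knockdown). Kdr is lower in every knockdown library than in its own scramble, 1 Kdr knockdown library stands alone for Dntt at 5.96 CPM, and Flt3 is high in 3 of the 4 double knockdown libraries.

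Promoters of the 10 genes in OCR HSCs differed in their histone marks. H3K4me3 marks active or poised promoters and H3K27me3 is laid by Polycomb at silent ones, and genes that carry both are called bivalent. Signal is the mean per base in the windows of the deposited tables, 750 bases for H3K4me3 and 2000 for H3K27me3, at the start site with the highest H3K4me3, in 2 libraries a mark. Notch1 (38.6 and 37.6 for H3K4me3), Ikzf1 (36.7 and 36.9) and Sox4 (38.0 and 33.4) were high in H3K4me3, at percentiles 86.3 to 90.1 of 25127 genes, and at or below 0.305 in H3K27me3. Flt3 was intermediate, with 13.3 and 12.1 for H3K4me3 and 0.820 and 0.418 for H3K27me3.

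Ebf1 and Satb1 had signal for both marks. The marks come from separate bulk libraries, where both marks on the same allele and a mixture of cells cannot be told apart. Ebf1 had 15.0 and 13.2 for H3K4me3, at percentile 53.9 of all genes, and 5.72 and 6.25 for H3K27me3, at percentile 97.7. The other Ebf1 start held 2.34 and 2.61 of H3K4me3. Satb1 had 23.6 and 24.9 for H3K4me3 and 4.15 and 3.68 for H3K27me3, at percentile 92.9. In OCR the RNA level of Satb1 was 0.297 ± 0.0812 CPM per kb and that of Ebf1 0.169 ± 0.0863 CPM per kb (SD, n = 4), with SD ranges that overlapped. Satb1 was above the 95th percentile of single receptor genes in 1 of the 4 OCR libraries and Ebf1 in 0.

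Il7r, Dntt, Rag1 and Blnk had little H3K4me3, from 0.278 for Il7r to 1.45 for Blnk, against a median of 10.5 over all genes. Their H3K27me3 was 0.167 to 1.1997, against a median of 0.322. Rag1 was the highest of these at 0.998 and 1.1997, at percentile 81.0. In total 6 of the 10 genes were above the median of all genes for H3K4me3 and 6 for H3K27me3, and 4 for H3K4me3 when the median over all starts of a gene was taken.

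**Figure D5:**
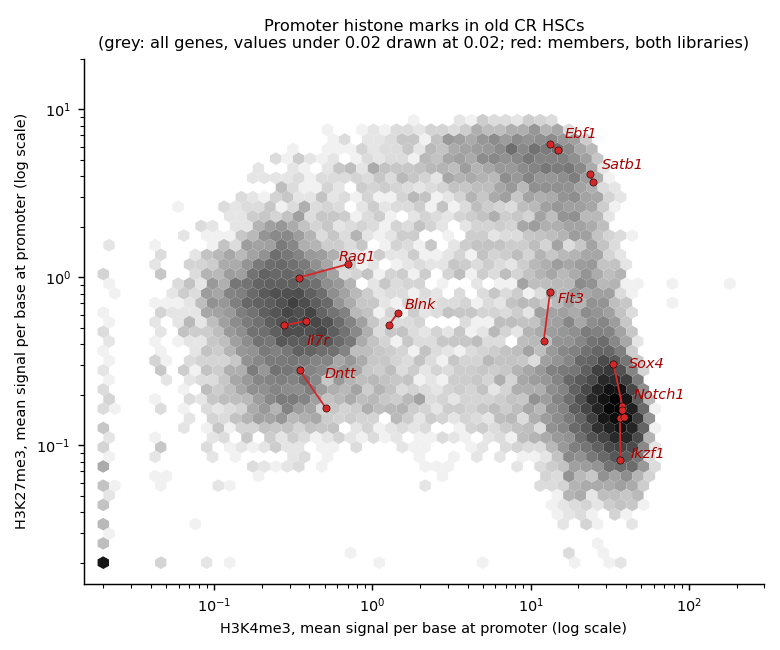
H3K4me3 against H3K27me3 at gene promoters in OCR HSCs, mean signal per base on log axes (grey: 25127 genes, values under 0.02 drawn at 0.02; red: the 10 genes, both libraries joined by a line). Ebf1 and Satb1 lie high in H3K27me3 and also hold H3K4me3, with Ebf1 near the middle of all genes for H3K4me3. Sox4, Ikzf1 and Notch1 lie among genes with H3K4me3 alone, and Il7r, Dntt and Rag1 lie at low H3K4me3.

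The promoters also differed in CpG content. RefSeq promoters of build GRCm38.p6, 250 bases before to 50 bases after a start, were matched for all 10 genes. CpG dinucleotides numbered 52 at the main Ikzf1 start, 45 at Satb1, 23 at Notch1, 18 at Flt3, 12 at Sox4, 9 at Ebf1, 7 at Blnk, 3 at Rag1, 2 at Dntt and 1 at Il7r, against a median of 7 over 32851 promoters. The 120 bases before the start are shown for a gene with both marks (Satb1, chr17:51832648-51832767, minus strand), for Ebf1 (chr11:44617980-44618099, plus strand), which also carries both marks and has fewer CpGs than Satb1, and for genes with little H3K4me3 (Rag1, chr2:101649533-101649652, and Il7r, chr15:9529877-9529996, both minus strand). Letters run 5′ to 3′ on the gene's strand and capitals mark CpG.
Satb1: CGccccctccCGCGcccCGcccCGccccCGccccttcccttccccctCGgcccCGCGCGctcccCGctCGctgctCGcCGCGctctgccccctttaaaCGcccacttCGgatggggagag
Ebf1: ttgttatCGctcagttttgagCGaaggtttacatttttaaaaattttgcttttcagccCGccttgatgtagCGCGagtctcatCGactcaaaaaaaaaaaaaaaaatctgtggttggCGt
Rag1: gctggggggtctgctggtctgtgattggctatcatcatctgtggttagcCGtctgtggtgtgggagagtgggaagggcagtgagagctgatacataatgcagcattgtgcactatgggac
Il7r: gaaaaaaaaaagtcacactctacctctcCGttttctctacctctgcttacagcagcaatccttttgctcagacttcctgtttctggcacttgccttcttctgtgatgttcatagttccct

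Chromatin accessibility was compared between OCRRF (2 ATAC-seq libraries) and OCR (4 libraries) over 131918 consensus peaks. The 10 genes held 94 peaks from 10 kb upstream to the gene end, of which 89 were tested and 16 lay within 1 kb of an annotated start. One peak was called, against 0.221% of 123372 peaks tested (0.13% higher and 0.0908% lower), and 13 had an unadjusted p under 0.05. The median log2 fold change was -0.03 over the tested peaks of the set and -0.01 over all peaks.

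The called peak lay at the alternative downstream start of Ikzf1 (chr11:11689958-11690527, mm10). It held 10.3 and 12.3 CPM in OCRRF and 7.87, 6.18, 7.53 and 6.22 CPM in OCR, with both refed libraries above all 4 others (log2 fold change 0.69, SE 0.16, adjusted p = 0.0316). The peak at the main Ikzf1 start (chr11:11684911-11686734) was 53.7 and 53.3 CPM in OCRRF and 51.3 to 59.0 CPM in OCR (-0.05, SE 0.07). Total Ikzf1 RNA was called lower in OCRRF than in OCR, and its relation to this peak was not tested. That RNA call was lost with the receptor sum as a covariate (edgeR adjusted p = 0.439) and in 1 fit of all groups (edgeR adjusted p = 0.373). The downstream start held 3.98 and 4.37 of H3K4me3 signal in the OCR libraries, against 36.7 and 36.9 at the main start. It held 2 CpGs in its 300 bases against 52. The 120 bases before it (chr11:11690057-11690176, plus strand, CpG in capitals) read as follows.
Ikzf1 downstream start: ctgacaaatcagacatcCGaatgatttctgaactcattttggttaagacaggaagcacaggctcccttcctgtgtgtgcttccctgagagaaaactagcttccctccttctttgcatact

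No other promoter peak of the set was called. The highest promoter peak in OCRRF and OCR was 23.4 and 20.9 CPM against 22.2 to 24.3 CPM for Flt3, 46.0 and 53.8 against 43.3 to 50.4 CPM for Satb1, 86.3 and 82.7 against 71.6 to 79.6 CPM for Sox4 (log2 fold change 0.15, adjusted p = 0.331), and 16.7 and 17.4 against 16.2 to 18.2 CPM for Notch1. At Il7r the promoter peak was 2.03 and 2.17 CPM in OCRRF and 2.35 to 3.71 CPM in OCR (-0.60, SE 0.27, adjusted p = 0.376). Genes with RNA near background also held open sites. Dntt had an intronic peak of 25.6 CPM on average over the 6 libraries, 2168 bases after its start (chr19:41030859-41032248), and Ebf1 had 26 peaks. The Ikzf1 call was lost without either OCRRF library or without OCR replicate 2 or 4.

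PU.1, the product of Spi1, is an ETS factor of HSCs and of the early lymphoid and myeloid lineages that binds a purine-rich core written GAGGAA. Its ChIP-seq peaks were called by the authors in each of 6 libraries, 2 each for OAL, OCR and OCRRF. A peak lay between 10 kb upstream and the gene end at 6 of the 10 genes in OCR replicate 1 and 3 in OCR replicate 2, at 2 in each OAL library, and at 1 and 2 in the OCRRF libraries. The share of protein-coding genes with a peak in the same span was 16.5% and 12.1% in OCR, 9.88% and 9.28% in OAL, and 9.15% and 7.47% in OCRRF. That share was not matched for gene length, and member peaks lay up to 96007 bases from a start, at Ebf1. Whether the members held more peaks than genes of their length was not tested. The replicates were made with different antibodies, and the 2 OCR libraries held the most peaks in all.

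Ikzf1 held the steadiest binding. An intronic site at chr11:11694148-11694530 and another at chr11:11711869-11712224 were peaks in all 6 libraries, with fold enrichments of 6.23 to 10.7 and 5.43 to 8.69, and another at chr11:11763172-11763635 was a peak in 3 libraries (6.20 to 7.34). The ATAC peaks over these sites had log2 fold changes of -0.26, -0.06 and -0.04 between OCRRF and OCR, and none was called. At Notch1 an intronic site (chr2:26513276-26513669) was a peak in both OAL libraries, 1 OCR and 1 OCRRF library at 7.27-fold to 11.8-fold.

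Blnk had a site 4 kb upstream of its start (chr19:40998537-40998869) that was a peak in both OCR libraries, at 5.63-fold and 7.03-fold, and in no OAL or OCRRF library. At single libraries, all of them OCR, peaks lay at another Notch1 site (chr2:26492954-26493200, 5.90-fold), at Satb1 (chr17:51814469-51814732, 10.9-fold), at the Il7r promoter (chr15:9529785-9530006, 5.81-fold) and at Ebf1 (6.75-fold and 6.83-fold, at different places in the 2 libraries). Flt3, Dntt, Rag1 and Sox4 had no PU.1 peak in any library. With 2 libraries a group and no signal between peaks, a difference between diets was not tested.

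The sites shared between libraries held the PU.1 core. Capitals mark GAGGAA, or TTCCTC where it reads on the other strand, in the 101 bases around the median summit, 5′ to 3′ on the gene's strand: plus for Ikzf1 (chr11:11694277-11694377, chr11:11712000-11712100 and chr11:11763256-11763356), minus for Notch1 (chr2:26513410-26513510) and Blnk (chr19:40998680-40998780).
Ikzf1 site 1: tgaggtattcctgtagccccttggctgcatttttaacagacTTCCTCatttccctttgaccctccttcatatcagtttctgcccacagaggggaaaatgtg
Ikzf1 site 2: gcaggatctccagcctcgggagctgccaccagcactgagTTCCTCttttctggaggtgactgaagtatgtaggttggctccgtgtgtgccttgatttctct
Ikzf1 site 3: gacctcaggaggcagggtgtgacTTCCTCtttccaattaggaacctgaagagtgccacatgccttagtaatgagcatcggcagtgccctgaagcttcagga
Notch1: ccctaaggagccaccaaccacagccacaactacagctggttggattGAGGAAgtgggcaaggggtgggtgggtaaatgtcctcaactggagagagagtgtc
Blnk: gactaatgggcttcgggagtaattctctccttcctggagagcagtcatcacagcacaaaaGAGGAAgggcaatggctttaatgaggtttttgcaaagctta
The core was in 50.3% to 54.3% of windows of this length at the summits of all PU.1 peaks of a library, and in 16.6% of windows at the centres of all ATAC peaks. The windows at Satb1 and the other Notch1 site held it, and those at the Ebf1 and Il7r peaks did not hold these letters.

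Over the 22 diet libraries, the members above 5 CPM did not move as 1 block. The correlation of log2 CPM was 0.70 between Flt3 and Sox4 and 0.60 between Flt3 and Satb1, but 0.09 between Ikzf1 and Sox4 and -0.20 between Ikzf1 and Notch1 (Pearson r, given as a description). The libraries share age groups and background, which differ together. Of 12327 genes above 5 CPM, those with the pattern most like Sox4 were Kcnk12 (r = 0.93) and Fkbp4 (0.93), those most like Flt3 were Hspd1 (0.89) and Sf3b4 (0.88), and those most like Ikzf1 were Gp5 (0.84) and Tbc1d2b (0.82). Satb1 was nearest to Rgs7bp (0.79) and Gprc5b (0.78), and Notch1 to Kif3c (0.76) and Tbc1d22a (0.75).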

How the data were processed

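RNA-seq tables held raw read counts per gene, deposited for each library. Per the study's methods the authors trimmed reads with trim galore and cutadapt, aligned them to mm10 with STAR and counted them with featureCounts on GENCODE gene models. Settings for strand and multi-mapping reads are not given in the sources used here. Of counts between 1 and 10, 68.3% to 83.2% were even in the diet libraries and 72.2% to 74.6% in the transplant ones, so mates of a pair may have been counted singly. Sox4 shares 2616 exon bases with an antisense gene, and Notch1 1068 and 414 with others, where reads cannot be told apart without strand. ATAC-seq tables held deposited counts per consensus peak after BWA and MACS, 15721335 to 19558148 a library. Histone tables held signal per base that the authors scaled to 10 M reads and summed over windows of 750 (H3K4me3) or 2000 bases (H3K27me3) at RefSeq starts, where the methods describe a wider H3K4me3 window on both sides of the start. PU.1 files held peaks that the authors called with MACS2 in each library alone, with a fold ratio over local background and −log10 p and q values. The antibody differed between PU.1 replicates per the labels and the deposited data. OAL ATAC-seq and OAL histone data were not analysed here.

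Counts of all genes were filtered by group, scaled by TMM and tested with quasi-likelihood fits in edgeR 4.0.16 on R 4.3.3, each comparison on its own groups. A gene was called at a Benjamini-Hochberg adjusted p under 0.05 over all genes tested and a fold above 1.2. A peak needed a fold above 1.5 and an average log2 CPM over 1.5. The tests were checked on simulated counts. Alternatives were DESeq2 1.42.0, its size factors, TMM from genes of at least 5 CPM, other filters, a replicate block, 1 fit of all groups, the receptor sum as a covariate, and leaving out each library. Replicate numbers recur across groups, and the labels tie them to no shared animal or day. The study counts the diet libraries as mice, but whether a library is a single mouse or a pool is not given in the sources used here, and p-values measure the spread between these libraries. Lengths came from a GENCODE annotation of GRCm38 that matched 54402 of 55376 symbols. The PU.1 core was searched on both strands with pysam 0.24.0.

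The 10 genes and the other lists were chosen with earlier results of these data known. Other list genes were named by rule, at most 3 called genes a direction in each comparison, ranked by size of change at 1 CPM or more, and the 2 genes nearest in pattern to each member above 5 CPM. A gene that the rule names is not reported here.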

Additional observations from a re-analysis of the deposited data

Results flagged for a closer look

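Among 56 sets of 1 gene in 1 group of 4 libraries, 7 held a library whose gap to the nearest other was above Dixon's 95% critical value, where chance gives about 1 in 20. In the Kdr knockdown, Flt3 was lowest in replicate 3 at 33.4 CPM, with the others at 50.9 to 52.4 CPM. In the same group Dntt was highest in replicate 1 at 5.96 CPM, with the others at 0.529 to 1.05 CPM. Refed young HSCs held 3 such libraries. Il7r was 1.69 CPM in YCRRF replicate 3 against 0 to 0.183 CPM, Rag1 was 0.624 CPM in replicate 2 against 0 to 0.0706 CPM, and Satb1 was 12.05 CPM in replicate 4 against 6.35 to 6.88 CPM. Blnk was 10.8 CPM in YCR replicate 3 against 3.40 to 4.61 CPM. Ebf1 was 2.53 CPM in OAL replicate 3 against 1.55 to 1.67 CPM.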

How the results depend on the processing

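For single genes, 380 alternative values kept their direction and their side of the threshold, 22 passed it anew, 48 lost it and 1 turned: Ebf1 in OCRRF against OAL, at -0.57 with the receptor sum as a covariate. The cause was not tested. Counts of the 10 genes called moved as follows. For OCR against OAL (1 called) DESeq2 gave 2, no filter on low counts 2, the replicate block 0 and 1 fit of all groups 0. For YCR against YAL (0) DESeq2 gave 1 and no filter 1. For OCRRF against OCR (1) DESeq2 gave 3, its size factors 2, no filter 2, the block 5, 1 fit of all groups 0 and the covariate 0. For OCRRF against OAL (1) TMM from genes of at least 5 CPM gave 0, 1 fit of all groups 0 and the covariate 0. Among 9 alternatives there, Ikzf1 lost its call in 4, and Il7r, near background, was called in 1. For YCRRF against YCR (0) no filter gave 1 and 1 fit of all groups 1. For OAL against YAL (5) DESeq2 gave 6 with Ebf1 added, that TMM 3, the block 2 and 1 fit of all groups 3. With the median over all starts, 4 genes in place of 6 were above the median H3K4me3. PU.1 peaks were at 6 genes in either OCR library and at 3 in library 2 alone, and at 2 genes in either OCRRF library and at 1 in library 1 alone. Leaving out each library gave 0 to 1 called gene for OCR against OAL, 0 to 4 for OCRRF against OCR (4 without OCR replicate 3), 0 for OCRRF against OAL, 0 to 5 for OAL against YAL, 0 to 1 called ATAC peak and 0 for the other comparisons. Where 1 scramble library remained, it was assumed to vary like the other groups. Libraries with the same replicate number did not deviate together (r of -0.29 to 0.19), so the block stands only for shared numbers, and it changed no count of called genes beyond those given. Counts of at most 102 a library limit Il7r, Dntt, Rag1 and Ebf1 in the diet groups.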
